A study of Mus musculus with 16 samples.

Results

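The 8 arrays described here are those of naive CD8 T cells, taken by their sample titles from 16 arrays in all: 4 of cells stimulated with PMA and ionomycin and 4 of cells kept in medium. CD8 T cells are the lymphocytes that recognise and kill infected cells, and naive ones have not yet met their antigen. All cells came from female C57BL/6N mice 7 weeks old and were sorted by flow cytometry as positive for CD8 and Thy1.2 and low for CD44, an adhesion receptor that rises once a T cell has been activated. The stimulated group was cultured for 4 h with 10 ng/mL PMA and 500 ng/mL ionomycin, and the resting group for 4 h without them. The mice carried no allele or earlier treatment that the labels name. The sort and the culture were repeated 4 times independently, and the spread between arrays of a group includes both steps. The other 8 arrays were from CD44-high memory phenotype cells under the same pair of conditions. They entered the choice of genes and probes, the estimate of the spread and 1 comparison at the end. The drugs act inside the cell without an antigen or a costimulatory signal, which limits the culture as a model of priming.

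PMA imitates diacylglycerol and switches on protein kinase C and, through RasGRP exchange factors, the Ras and ERK kinase cascade, which leads to the transcription factors AP-1 and NF-kappaB. Ionomycin lets calcium into the cell, which activates the phosphatase calcineurin and so the transcription factor NFAT. Naive T cells are otherwise small resting cells kept alive by interleukin 7 and kept circulating by the lipid sphingosine 1-phosphate, and activation turns them into growing cells that secrete cytokines and stay in the lymphoid tissue.

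Levels are log2 values of the deposited signal relative to the 75th percentile of the same array, so that 0 is that percentile, 1 unit is a doubling, and levels of different genes are not compared. A change is the mean level of stimulated minus that of resting cells, with its standard error (SE), and a gene rose or fell where its adjusted p from limma was below 0.05. Some probes were dimmer than the background limit on all 4 arrays of a group. Their change is given as "at least N-fold", which sets the bright group's mean against a mean over the dim arrays. Each dim array enters with the higher of the gene's own signal and the lowest signal of any probe above background there. That limit belongs to the array and not to the spot, so N is not a strict bound. A quantity named in bulk RNA cannot tell fewer cells of a type from less RNA per cell.

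The sequences upstream of genes with large changes come first, because NFAT, AP-1 and NF-kappaB act through short DNA motifs. The 250 bases before the start of each gene are from RefSeq on build GRCm38.p6, on the strand of the gene and 5′ to 3′. Capitals mark exact matches to GGAAA for NFAT, TGANTCA for AP-1, TGACGTCA for CREB and ATF, GCGNGGGCG for Egr or, for NF-kappaB, GGGA and TTTCC with any 1 base between them, on either strand, and GGAAA is also part of the NF-kappaB motif. Shown are 4 genes with some of the largest rises (the cytokine genes Il2 and Ifng, the chemokine Xcl1 and the TNF family ligand Tnfsf14) and, for contrast, 2 of the largest falls (Il7r, the interleukin 7 receptor, and Slc6a19, a neutral amino acid transporter).
Il2, chr3:37125955-37126204, minus strand: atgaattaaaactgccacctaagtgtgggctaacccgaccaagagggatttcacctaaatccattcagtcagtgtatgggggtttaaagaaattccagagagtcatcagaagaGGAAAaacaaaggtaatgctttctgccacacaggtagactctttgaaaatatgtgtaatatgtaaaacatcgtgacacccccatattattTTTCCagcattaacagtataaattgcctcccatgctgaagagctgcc
Ifng, chr10:118440796-118441045, plus strand: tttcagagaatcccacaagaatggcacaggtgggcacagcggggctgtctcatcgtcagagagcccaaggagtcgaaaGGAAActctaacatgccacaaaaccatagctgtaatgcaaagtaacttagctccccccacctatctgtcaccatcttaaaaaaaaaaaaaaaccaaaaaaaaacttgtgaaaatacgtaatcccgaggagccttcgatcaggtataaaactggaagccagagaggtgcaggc
Xcl1, chr1:164935523-164935772, minus strand: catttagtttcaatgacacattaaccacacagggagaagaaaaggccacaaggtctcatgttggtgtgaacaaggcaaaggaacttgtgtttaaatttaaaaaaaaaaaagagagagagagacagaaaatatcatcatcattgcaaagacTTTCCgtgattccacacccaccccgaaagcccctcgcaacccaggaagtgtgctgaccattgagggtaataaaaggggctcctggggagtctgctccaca
Tnfsf14, chr17:57194182-57194431, minus strand: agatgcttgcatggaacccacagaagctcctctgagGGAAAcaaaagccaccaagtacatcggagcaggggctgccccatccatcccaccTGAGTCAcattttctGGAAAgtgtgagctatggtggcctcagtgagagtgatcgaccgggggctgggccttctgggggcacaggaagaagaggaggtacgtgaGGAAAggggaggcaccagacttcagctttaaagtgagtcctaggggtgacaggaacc
Il7r, chr15:9529877-9530126, minus strand: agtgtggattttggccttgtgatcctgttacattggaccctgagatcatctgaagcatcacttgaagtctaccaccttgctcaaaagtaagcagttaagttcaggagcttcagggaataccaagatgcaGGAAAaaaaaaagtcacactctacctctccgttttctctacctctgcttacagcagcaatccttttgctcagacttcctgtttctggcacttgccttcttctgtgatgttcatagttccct
Slc6a19, chr13:73692637-73692886, minus strand: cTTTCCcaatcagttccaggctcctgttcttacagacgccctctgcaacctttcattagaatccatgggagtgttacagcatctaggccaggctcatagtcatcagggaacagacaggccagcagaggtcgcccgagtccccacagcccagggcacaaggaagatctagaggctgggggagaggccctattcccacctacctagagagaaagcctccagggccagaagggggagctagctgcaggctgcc

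The Tnfsf14 window held 3 matches to the NFAT letters and 1 to those of AP-1, and the Il2 window held 2 NFAT matches and none of the other motifs. The NFAT letters are so short that 56% of the 200 largest rises with 1 promoter in the table held them, against 55.5% of the 200 largest falls, 53.9% of the 8799 genes tested with a promoter and 55.4% of all 22862 promoters of this length. In the same sets, in that order, AP-1 letters were in 6.5%, 3%, 4.58% and 6.96%, CREB and ATF letters in 4%, 1.5%, 2.58% and 1.61%, NF-kappaB letters in 1%, 1%, 0.375% and 0.346% and Egr letters in 8.5%, 9%, 7.83% and 4.47%. These shares are descriptions of letters in a window, and no test was made of them.

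The arrays were alike in depth: 60.6% to 64.3% of spots were well above background, and the array's 75th percentile was an intensity of 504.3 to 678.0. The arrays of a group shared 1 slide, and no slide held 2 groups: slide and treatment cannot be told apart. The genes of the sort were present on every naive array. Cd8b1, a chain of the CD8 co-receptor, was at 7.26, 6.92, 6.87 and 7.27 in stimulated cells, against 7.72, 7.43, 7.33 and 7.56 in resting cells, a fall (-0.43 ± 0.12). The other chain gene Cd8a fell by 1.59 ± 0.21, with all 3 of its probes called, and Cd3e, a chain of the CD3 complex, fell by 1.23 ± 0.22. The change of Thy1 was 0.20 ± 0.22, which did not pass (adjusted p = 0.425). Cd44 was at 3.86, 2.87, 2.86 and 3.27 in stimulated cells, against -0.51, -0.61, -0.75 and -0.45 in resting cells, a rise of 3.80 ± 0.19. Of its 3 probes 2 rose, and the changes of the probes ran from 0.31 to 3.80. By this probe RNA of the receptor used to sort the cells as naive was raised in all 4 stimulated samples. The surface protein of the sort was not measured here. A set of dim probes moved with the groups: of 420 olfactory, vomeronasal and taste receptor genes (sensory receptor genes) tested, which T cells are not known to use, 198 rose and 36 fell (47.1% and 8.57%, against 36.7% and 32.0% of all genes tested), with a median change of 0.52 against 0.11. The 420 are those of 1059 on the array that were above background on 3 of 4 arrays of any group. A dim gene can thus enter through the group where it is high, and these shares and medians depend partly on that filter. Of the 420, 51 were above background on no resting array and 31 on no stimulated array. The median level of the 420 was -4.65, -4.38, -4.56 and -4.43 on the stimulated arrays, against -4.57, -5.19, -5.10 and -4.88 on the resting arrays, of which the first overlapped with the stimulated ones. Their median change was 0.22 by the authors' deposited table and 0.20 by normexp background correction with repaired parameters. Without stimulated replicate 3 the number that fell was 23. Values given with the sensory receptor covariate come from a fit that holds this median level of the same 420 genes as a covariate, an alternative added after seeing the data. The part of this shift in small rises of other dim genes was not tested.

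Most of the measured transcriptome differed between the stimulated and the resting arrays, which also differed in slide. Of 18401 genes, 6761 rose (36.7%) and 5894 fell (32.0%), together 68.8%, and the median change over all genes was 0.11. Counts of the gene lists below are to be read beside these shares. A change of at least 4-fold was seen in 1309 genes that rose (7.11%) and 1503 that fell (8.17%), and one of at least 32-fold in 58 and 39. All 4 stimulated arrays lay above all 4 resting arrays for 5814 genes (31.6%) and below them for 5266 (28.6%). The plot of change against level shows rises and falls at every level, with the largest fold changes at middle levels. Stability was shown for fewer genes. Among 7576 genes with a mean level of 0 or more, 984 (13%) had a 95% interval of the change wholly within 0.5 of 0. The closest to 0 among the genes of the lists below included the acetyltransferase gene Kat5 (-0.01 ± 0.10) and Atp6ap1, an accessory subunit of the vacuolar proton pump (0.02 ± 0.10). The place of 0 rests on the scaling.

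**Figure D1:**
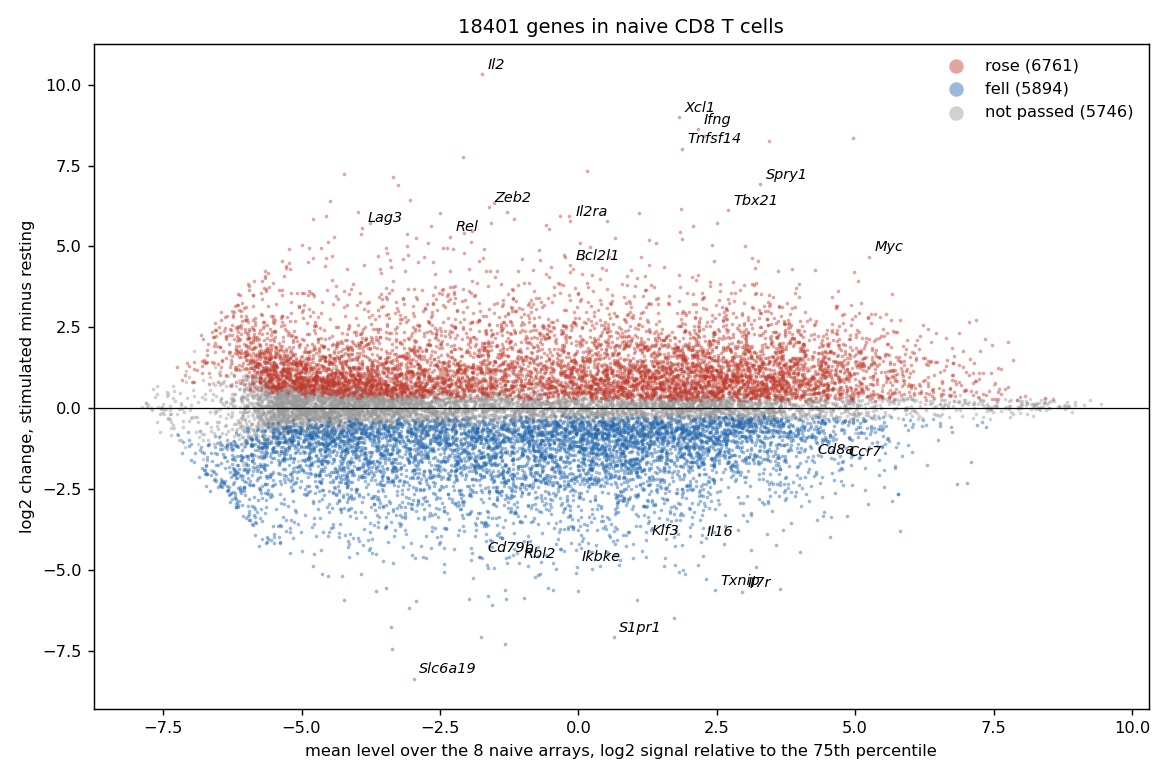
Log2 change (stimulated minus resting) against the mean level over the 8 naive arrays for 18401 genes, red for the 6761 that rose, blue for the 5894 that fell and grey for the rest. Il2 stands highest at 10.32 and Slc6a19 lowest at -8.36.

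The 15 largest rises include genes of cytokines, chemokines and surface receptors as well as of intracellular factors. Il2, the growth factor of T cells, was at 3.69, 3.52, 3.50 and 3.02 in stimulated cells, against -6.46, -7.18, -6.88 and -7.05 in resting cells. No resting array was well above background for it, and the rise was at least 550-fold. Ifng, the antiviral cytokine interferon gamma, was at 6.56, 6.60, 6.62 and 6.12 in stimulated cells, against -1.73, -2.31, -2.59 and -2.00 in resting cells, a rise of 8.63 ± 0.17. Both groups were tight and lay far apart for both genes. Xcl1, a chemokine that draws cross-presenting dendritic cells, was at 6.68, 6.27, 6.31 and 6.01 in stimulated cells, against -2.34, -2.86, -2.92 and -2.62 in resting cells, and Tnfsf14, the ligand LIGHT, at 6.13, 6.07, 5.96 and 5.36 in stimulated cells, against -1.66, -2.29, -2.34 and -2.27 in resting cells. Other genes among the 15 largest rises were Inhba, the activin A subunit (at least 58.9-fold), the Wnt receptor gene Fzd9 (6.42 ± 0.31, with 1 of 4 resting arrays above background) and Spin4 (at least 21-fold). Inhba varied among the resting arrays, from -7.46 to -5.89, all below every stimulated value. Sema7a, a membrane-anchored semaphorin, rose by 8.42 ± 0.11 and Bcat1, an enzyme of branched-chain amino acid breakdown, by 7.32 ± 0.20.

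The genes with the largest falls include several cell surface receptors. Il18r1, a chain of the receptor for interleukin 18, was at -5.08, -4.36, -4.29 and -4.69 in stimulated cells, against 1.53, 1.15, 1.03 and 2.22 in resting cells. Tbxa2r, the thromboxane A2 receptor, was at -3.70, -4.21, -3.81 and -3.94 in stimulated cells, against 2.31, 1.91, 1.96 and 1.68 in resting cells, a fall of 5.88 ± 0.16. Both genes were measured on all 8 arrays, and no stimulated array came near a resting one. Cnr2, the cannabinoid receptor of leukocytes, fell by 7.08 ± 0.19, with 2 of 4 stimulated arrays above background. Tmie (-5.82 ± 0.34), Fam78a (-6.48 ± 0.14) and Rflnb (-7.28 ± 0.32) fell too, and 3 of 4 stimulated arrays exceeded the background for Rflnb. The other members of the 15 whose stimulated arrays were all below background were Art4, an ADP-ribosyltransferase that carries a blood group antigen (at least 61.7-fold lower), Gprc5b (at least 48.1-fold lower), the sialic acid acetylesterase gene Siae (at least 49.4-fold lower) and the sialyltransferase gene St8sia6 (at least 27-fold lower), besides Slc6a19, given further on.

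Among 31 cytokine genes 17 rose and 4 fell, and the median change was 0.90. Medians of lists with many dim members shrank under other treatments of background. For the cytokines the median was 0.35 by the authors' deposited table and 0.29 by normexp background correction with repaired parameters, and 14 rose by either. Tnf, tumour necrosis factor, was at 4.01, 3.48, 3.51 and 2.93 in stimulated cells, against -0.57, -1.07, -0.97 and -1.16 in resting cells, a rise of 4.42 ± 0.25. Spp1, osteopontin, rose by 4.29 ± 0.41 (2 of 4 resting arrays exceeded the background). The cytokines that fell were led by Il16, a chemoattractant precursor that resting lymphocytes hold, which was at 0.22, 0.06, 0.02 and 0.30 in stimulated cells, against 4.29, 4.34, 4.28 and 4.19 in resting cells. The groups did not overlap for Tnf or Il16. Of 20 chemokine genes 12 rose and 3 fell (median 1.29, or 0.43 and 0.38 by the same alternatives, where 9 rose). Ccl4 rose by 8.34 ± 0.16 and Ccl3 by 8.25 ± 0.14, both inflammatory chemokines. The interferon gamma-induced chemokine gene Cxcl9 was at least 3.79-fold higher, Ccl9 rose by 3.25 ± 0.24 and the neutrophil attractant gene Cxcl2 was at least 3.11-fold higher. Ccl6 (-2.75 ± 0.22, with 1 of 4 stimulated arrays above background), Ccl27a (-1.79 ± 0.24) and Ccl25 (-1.66 ± 0.17) fell. Ccl6 and the cytokine gene Il1b (-1.60 ± 0.41) are myeloid genes, and they fell beside other myeloid markers given further on. With the sensory receptor covariate Il1b did not pass (-1.20, adjusted p = 0.0929).

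TNF family ligands rose in 9 of 15 and fell in 1, with a median of 2.26 against 0.11 over all genes (0.99 by the authors' deposited table and 0.77 by repaired normexp). Tnfsf11, the ligand RANKL, was at 2.20, 2.29, 2.31 and 2.20 in stimulated cells, against -2.94, -3.29, -3.62 and -3.36 in resting cells, a rise of 5.55 ± 0.24. Tnfsf8, the CD30 ligand, rose by 4.09 ± 0.31 and Fasl, which triggers death in cells bearing Fas, by 3.65 ± 0.24. Cd40lg, the CD40 ligand best known from CD4 T cells, was at least 3.41-fold higher. The member that fell was Ltb (-2.36 ± 0.15), the membrane-anchoring subunit of lymphotoxin, and without stimulated replicate 2 there were 2 such members.

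**Figure D2:**
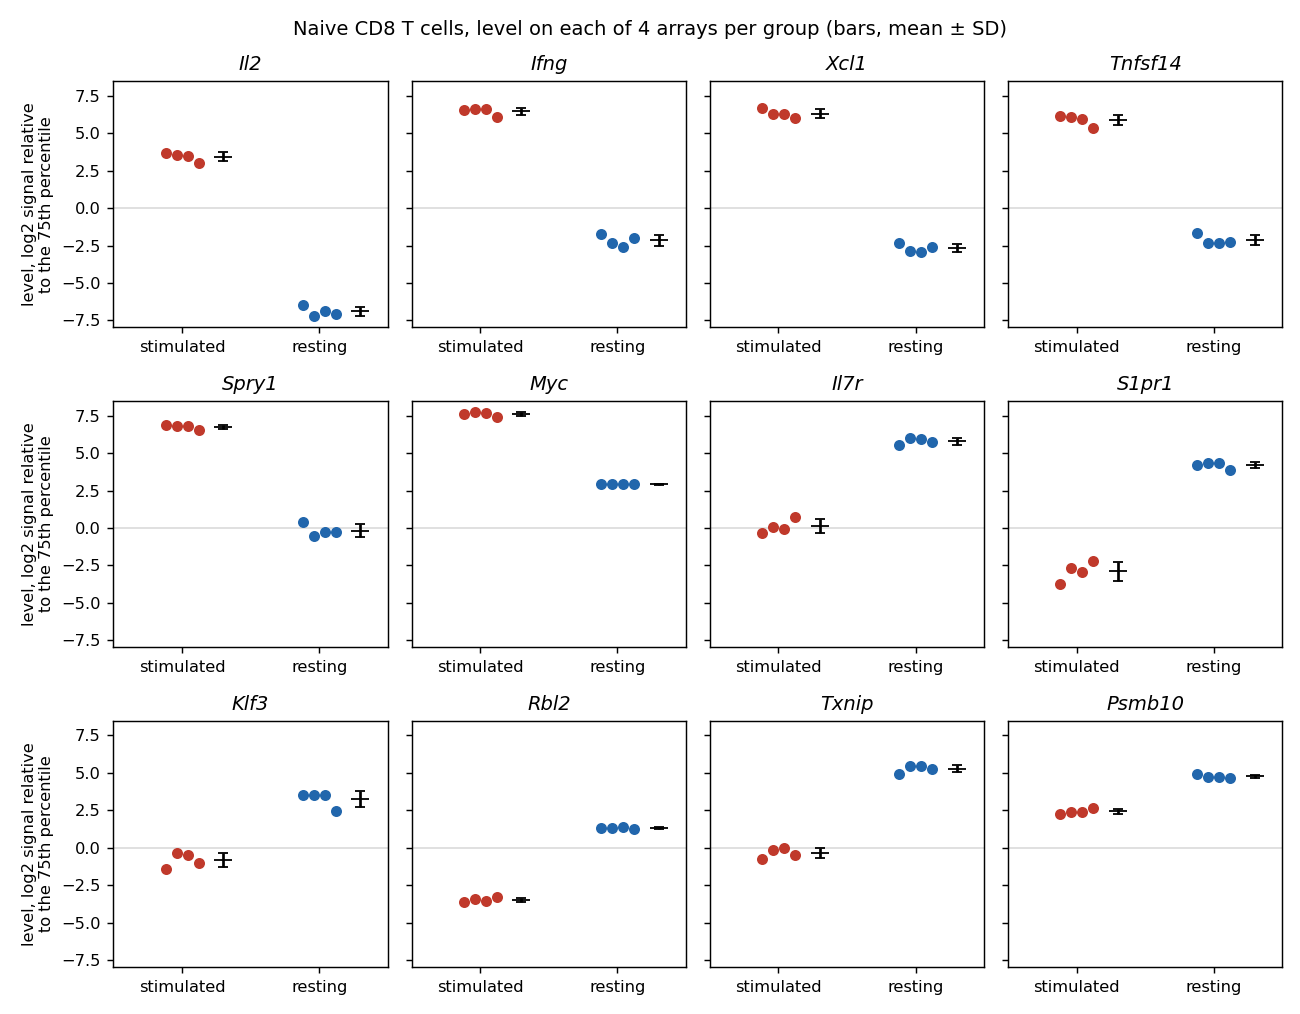
Level on each of the 4 arrays per group (points, stimulated left and resting right; bars are mean ± SD) for 12 genes, on a log2 scale relative to the 75th percentile of the array. For each gene the stimulated and resting arrays do not overlap, from Il2 (-7.18 to -6.46 at rest) to Psmb10.

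Most inhibitors of the kinase cascade that PMA enters rose. Of 15 MAP kinase phosphatases and Sprouty or Spred inhibitors, which switch the ERK cascade off, 11 rose and 1 fell (median 1.65, or 1.08 by repaired normexp). Spry1 was at 6.87, 6.79, 6.81 and 6.51 in stimulated cells, against 0.42, -0.53, -0.30 and -0.28 in resting cells, a rise of 6.92 ± 0.16. Dusp4, a nuclear ERK phosphatase, rose by 5.45 ± 0.17, and Dusp14 and Spry4 were at least 5.93-fold and 3.09-fold higher. Dusp10, which acts on JNK and p38, was the exception (-2.37 ± 0.29). The kinases themselves were mixed. Of 38 MAP kinase cascade and protein kinase C genes 10 rose (26.3%) and 18 fell (47.4%). Map2k3 (3.84 ± 0.13), Map3k8, the kinase TPL2 (3.64 ± 0.24), and Map3k5, the stress kinase ASK1 (3.48 ± 0.14), rose most. Mapk3, the kinase ERK1, was at -1.21, -1.71, -1.66 and -2.06 in stimulated cells, against 1.97, 1.10, 1.17 and 1.16 in resting cells, a fall with no overlap (-3.01 ± 0.24), and the Ras exchange factor gene Rasgrp2 fell by 2.68 ± 0.22. Map2k6, a kinase of p38, was at least 5.99-fold lower.

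RGS genes, which shorten signals of G protein-coupled receptors, went opposite ways. Among RGS genes and regulators of small GTPases 6 of 18 rose (33.3%) and 10 fell (55.6%), against 36.7% and 32.0% over all genes. Rgs16 was at 4.80, 3.96, 3.98 and 3.68 in stimulated cells, against -1.72, -2.18, -1.89 and -1.91 in resting cells and Rgs1, which restrains chemokine receptors in lymphocytes, rose by 4.30 ± 0.14. Rgs14 fell by 3.68 ± 0.20, Arhgef1, an exchange factor downstream of such receptors, by 3.32 ± 0.13, and the Ras inhibitor gene Rasal3 by 3.30 ± 0.16. No array of one group reached the other for Rgs16.

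The calcium arm also split by member. Of 28 NFAT and calcium signalling genes 11 rose and 9 fell, near the shares over all genes. Orai1, the pore of the store-operated calcium channel, was at 3.83, 3.67, 3.73 and 3.25 in stimulated cells, against 1.78, 1.11, 1.19 and 1.05 in resting cells, and its relative Orai2 at -1.57, -1.23, -1.10 and -1.31 in stimulated cells, against 2.11, 2.25, 2.30 and 2.10 in resting cells. The Orai1 probe rose (2.34 ± 0.16) and the Orai2 probe fell (-3.49 ± 0.14), each without overlap. The same held for the endoplasmic calcium sensors: Stim2 rose by 1.27 ± 0.15, and Stim1 fell by 1.32 ± 0.21. Among the factors themselves Nfat5 (1.60 ± 0.11) and Nfatc1 (1.33 ± 0.18) rose and Nfatc3 fell (-1.73 ± 0.30). Rcan3, a calcineurin regulator, fell by 3.13 ± 0.13 and the calcium release channel gene Itpr3 by 2.60 ± 0.17.

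NF-kappaB genes rose in 14 of 27 and fell in 7 (11 with quantile scaling). The subunit genes Rel (5.30 ± 0.26) and Nfkb1 (2.92 ± 0.15) and the inhibitor genes Nfkbid (3.57 ± 0.25) and Tnip3 (3.83 ± 0.33, with 1 of 4 resting arrays above background) led the rises. Ikbke, an atypical IkappaB kinase, was at -2.50, -2.31, -2.19 and -2.93 in stimulated cells, against 2.34, 2.35, 2.52 and 2.46 in resting cells. Bcl3 (-3.90 ± 0.18) and the inhibitor gene Tnip1 (-2.92 ± 0.12) fell as well.

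Most transcription factors of the early response rose. Of 15 AP-1 genes 10 rose and none fell. Fosl1 rose by 6.34 ± 0.31. Atf3 was at 3.76, 4.09, 4.22 and 4.32 in stimulated cells, against 0.10, 0.03, 0.11 and 0.32 in resting cells, a rise of 3.96 ± 0.18, and Fosl2 (2.53 ± 0.22) and the small Maf gene Maff (2.27 ± 0.20) followed. With quantile scaling 1 of the 15 fell. Of 16 Egr, Nr4a and other immediate early genes 14 rose, and Nab1, a corepressor of Egr proteins, fell (-0.76 ± 0.15). Myc, the regulator of cell growth, was at 7.63, 7.71, 7.66 and 7.39 in stimulated cells, against 2.90, 2.90, 2.96 and 2.91 in resting cells, a rise of 4.68 ± 0.11 with little spread among the resting arrays. Egr4 rose by 4.60 ± 0.19 (3 of 4 resting arrays exceeded the background), and Egr2, which restrains T cell activation, by 4.22 ± 0.18.

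Factors that direct effector cells rose in 16 of 23 and fell in 3 (median 1.38, or 0.84 by repaired normexp). Tbx21, the effector regulator T-bet, was at 5.41, 5.73, 5.69 and 6.21 in stimulated cells, against -0.28, -0.63, -0.76 and 0.22 in resting cells. Zbtb32, a repressor of proliferation, was at least 165-fold higher, Zeb2 rose by 6.21 ± 0.20 and Irf8 by 6.17 ± 0.19. The falls were Ikzf2, the factor Helios (-2.81 ± 0.14), Tox (-0.74 ± 0.11) and Stat4 (-0.39 ± 0.11).

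Factors of naive and stem-like cells did not all fall. Of 27, 12 fell (44.4%) and 9 rose (33.3%), against 32.0% and 36.7% over all genes. Klf7 (-4.20 ± 0.18), Klf3 (-4.09 ± 0.27), Lef1 (-3.46 ± 0.12) and Tcf7, which encodes TCF1 (-2.73 ± 0.11), fell most. Lef1 was at 2.49, 2.77, 2.59 and 2.50 in stimulated cells, against 6.19, 6.06, 5.96 and 5.96 in resting cells. Gfi1, a repressor (3.45 ± 0.16), Runx1 (2.49 ± 0.38) and Ikzf3 (2.45 ± 0.27) rose. Klf2, a factor that maintains S1pr1 in naive T cells, gave 2 answers: the change of its brighter probe was 0.22 ± 0.64 and did not pass the test (adjusted p = 0.776), its other probe changed by -4.93, and with the mean of both probes it fell (-2.36, adjusted p = 7.65e-06). Of 14 Kruppel-like factors 2 rose, Klf9 (2.04 ± 0.19) and Klf16 (0.83 ± 0.14), and 6 fell.

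Receptors for cytokines moved in both directions. Of 33 genes 13 rose (39.4%) and 14 fell (42.4%), against 36.7% and 32.0% over all genes. Il2ra, which completes the high-affinity receptor for interleukin 2, was at 2.80, 2.71, 2.81 and 2.69 in stimulated cells, against -3.75, -3.15, -3.46 and -1.80 in resting cells, and Il15ra rose by 4.60 ± 0.25. Il1r2, a decoy receptor for interleukin 1, rose by 4.59 ± 0.28 (1 of 4 resting arrays exceeded the background). Il7r was at -0.35, 0.08, -0.05 and 0.74 in stimulated cells, against 5.52, 6.01, 5.97 and 5.71 in resting cells, and the interferon gamma receptor genes Ifngr2 (-4.43 ± 0.22) and Ifngr1 (-3.80 ± 0.30) fell while their ligand Ifng rose. Il7r values did not overlap between the groups.
Downstream of these receptors, 9 of 26 JAK, STAT and SOCS genes rose (34.6%) and 12 fell (46.2%). The feedback inhibitors Cish (2.94 ± 0.21) and Socs1 (2.24 ± 0.26) and the kinase genes Pim3 (2.79 ± 0.17) and Jak2 (2.26 ± 0.13) rose. Pias3 (-3.77 ± 0.18), Tyk2 (-2.41 ± 0.24), Jak3 (-1.71 ± 0.29) and Stat2 (-1.58 ± 0.28) fell.

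Costimulatory and TNF receptor genes rose in 10 of 27 and fell in 8, near the shares over all genes. Tnfrsf9, the costimulatory receptor 4-1BB, was at 5.31, 4.03, 3.87 and 4.76 in stimulated cells, against 0.07, -1.47, -1.45 and -0.15 in resting cells. Slamf7 (5.80 ± 0.21) and Slamf1 (5.04 ± 0.15), self-binding receptors of the SLAM family, rose, and Tnfrsf21, death receptor 6, was at least 37.7-fold higher. SAP, the adaptor of the SLAM receptors (Sh2d1a), fell by 3.05 ± 0.15. Tnfrsf26 (-1.83 ± 0.25), Tnfrsf18 (-1.44 ± 0.20) and Tnfrsf25 (-1.02 ± 0.15) fell too. Of 21 inhibitory receptors and ligands 11 rose and 6 fell. Havcr2, the receptor TIM-3, was at 0.35, -0.26, -0.42 and 1.01 in stimulated cells, against -4.63, -3.98, -4.48 and -3.42 in resting cells, and Lilrb4a rose by 3.48 ± 0.23. Nt5e, the ecto-enzyme CD73 (-2.81 ± 0.26), Pecam1 (-2.49 ± 0.24) and Lair1 (-1.54 ± 0.29) fell, and Cd200r1 was at least 1.33-fold lower.

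Of 25 chemokine receptor and egress genes 9 rose and 10 fell, shares of 36% and 40% against 36.7% and 32.0% over all genes. S1pr1, the receptor for sphingosine 1-phosphate that lets T cells leave lymphoid tissue, was at -3.77, -2.66, -2.91 and -2.24 in stimulated cells, against 4.19, 4.33, 4.32 and 3.89 in resting cells, and its relative S1pr4 fell by 4.36 ± 0.18. Cd69, which removes the S1PR1 protein from the surface, rose by 2.87 ± 0.16. Ccr7, which guides cells into lymph nodes (-1.65 ± 0.23), and the gut homing receptor Ccr9 (-1.79 ± 0.20) fell. Cxcr3 was at 3.86, 3.65, 3.63 and 4.37 in stimulated cells, against 0.01, -0.56, -0.57 and 0.15 in resting cells, a rise without overlap, and Ccr4 and Ccr8 were at least 4.51-fold and 1.89-fold higher.
Among 28 integrin, selectin ligand and adhesion genes 11 rose (7 with the median of the sensory receptor genes as a covariate) and 14 fell. Beside Cd44, the sulphotransferase gene Chst2 (4.53 ± 0.24), the sialyltransferase gene St3gal1 (2.65 ± 0.12) and the integrin chain Itgav (2.22 ± 0.16) rose. The integrin chains Itgb7 (-2.98 ± 0.23), Itga6 (-2.52 ± 0.29) and Itgae (-2.26 ± 0.17) and the selectin ligand gene Selplg (-2.79 ± 0.25) fell.

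Genes of the T cell receptor machinery fell more often than they rose, 21 against 12 of 36. Cd3g, a chain of the CD3 complex, was at 2.66, 2.13, 2.16 and 2.84 in stimulated cells, against 4.91, 4.66, 4.63 and 5.10 in resting cells, and the adaptor genes Grap2 (-3.76 ± 0.17) and Sit1 (-2.45 ± 0.24) fell. In 2 pairs of related genes the members moved oppositely. Sla, an adaptor that lowers receptor levels, rose by 3.62 ± 0.16 and its relative Sla2 fell by 3.75 ± 0.23. Ubash3b, which encodes the phosphatase STS-1, rose by 3.54 ± 0.20 and Ubash3a, STS-2, fell by 2.81 ± 0.25. The kinase genes Zap70 (2.56 ± 0.14) and Fyn (2.25 ± 0.17) rose.
Genes that dampen receptor signals were also divided: 5 of 15 anergy-linked ligase and diacylglycerol kinase genes rose (33.3%) and 7 fell (46.7%). Over all genes the shares were 36.7% and 32.0%. Dgka, a kinase that removes diacylglycerol, was at 2.35, 2.42, 2.47 and 2.99 in stimulated cells, against 6.59, 6.42, 6.42 and 6.70 in resting cells. Cblb, a ubiquitin ligase that restrains T cells (2.42 ± 0.34), Ndfip1 (2.08 ± 0.10) and the adaptor gene Sh2d2a (2.43 ± 0.21) rose, and the ligase gene Nedd4 fell (-2.09 ± 0.36).

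Granule genes rose in 13 of 25 and fell in 8. Gzmb, the killing protease granzyme B, was at 4.04, 2.02, 1.99 and 2.50 in stimulated cells, against -2.74, -3.56, -3.04 and -3.87 in resting cells, with more spread than the genes above. Gzmc was at least 9.3-fold higher, Gzmd rose by 2.87 ± 0.53 (3 of 4 resting arrays exceeded the background), and Serpinb9, the inhibitor that protects a killer cell from its own granzyme B, rose by 2.76 ± 0.31. Granzyme C and D are close relatives and their probes may share signal. Several genes of granule release and traffic fell instead: Vamp8 fell by 3.71 ± 0.16, Unc13d by 3.06 ± 0.18, Lyst by 2.61 ± 0.15 and the granule protease gene Ctsw by 1.52 ± 0.14. The change of Prf1, perforin, was -0.37 ± 0.47 and did not pass (adjusted p = 0.5).

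Most genes tied to the resting state fell. Of 35 quiescence, FoxO and PI3 kinase brake genes 21 fell and 5 rose, with a median of -1.01. Txnip, which limits glucose uptake, was at -0.76, -0.13, 0.00 and -0.48 in stimulated cells, against 4.95, 5.43, 5.47 and 5.26 in resting cells, a change of -5.62 ± 0.17 with no overlap. Klhl24 fell by 4.26 ± 0.25, and Btg3 (2.60 ± 0.13), the stress sensor gene Sesn2 (2.30 ± 0.47), the receptor gene Vsir (1.70 ± 0.12) and Foxo4 (1.55 ± 0.18, with 3 of 4 resting arrays above background) rose. GIMAP genes, GTPases linked to lymphocyte survival, fell in 5 of 7, most in Gimap7 (-2.59 ± 0.23), and Gimap5 rose by 1.58 ± 0.13.
Interferon-stimulated genes fell in 28 of 47 and rose in 6, with a median of -1.12. Ifit2, an antiviral RNA-binding protein, was at -4.54, -4.02, -4.78 and -4.52 in stimulated cells, against -0.39, -0.56, -0.57 and -0.50 in resting cells, and Oasl2 (-3.39 ± 0.45), Ifit3 (-3.36 ± 0.35) and Oas2 (-3.21 ± 0.52, with 2 of 4 stimulated arrays above background) followed. The members that rose included Irgm1 (1.56 ± 0.28), Ifi204 (1.14 ± 0.30), Gbp5 (1.14 ± 0.28) and Igtp (1.08 ± 0.25), of which Gbp5, Irgm1 and Igtp encode GTPases known from responses to interferon gamma. The call of Igtp ended with quantile scaling (0.56), under which 3 of the 47 genes rose and 30 fell.

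**Figure D3:**
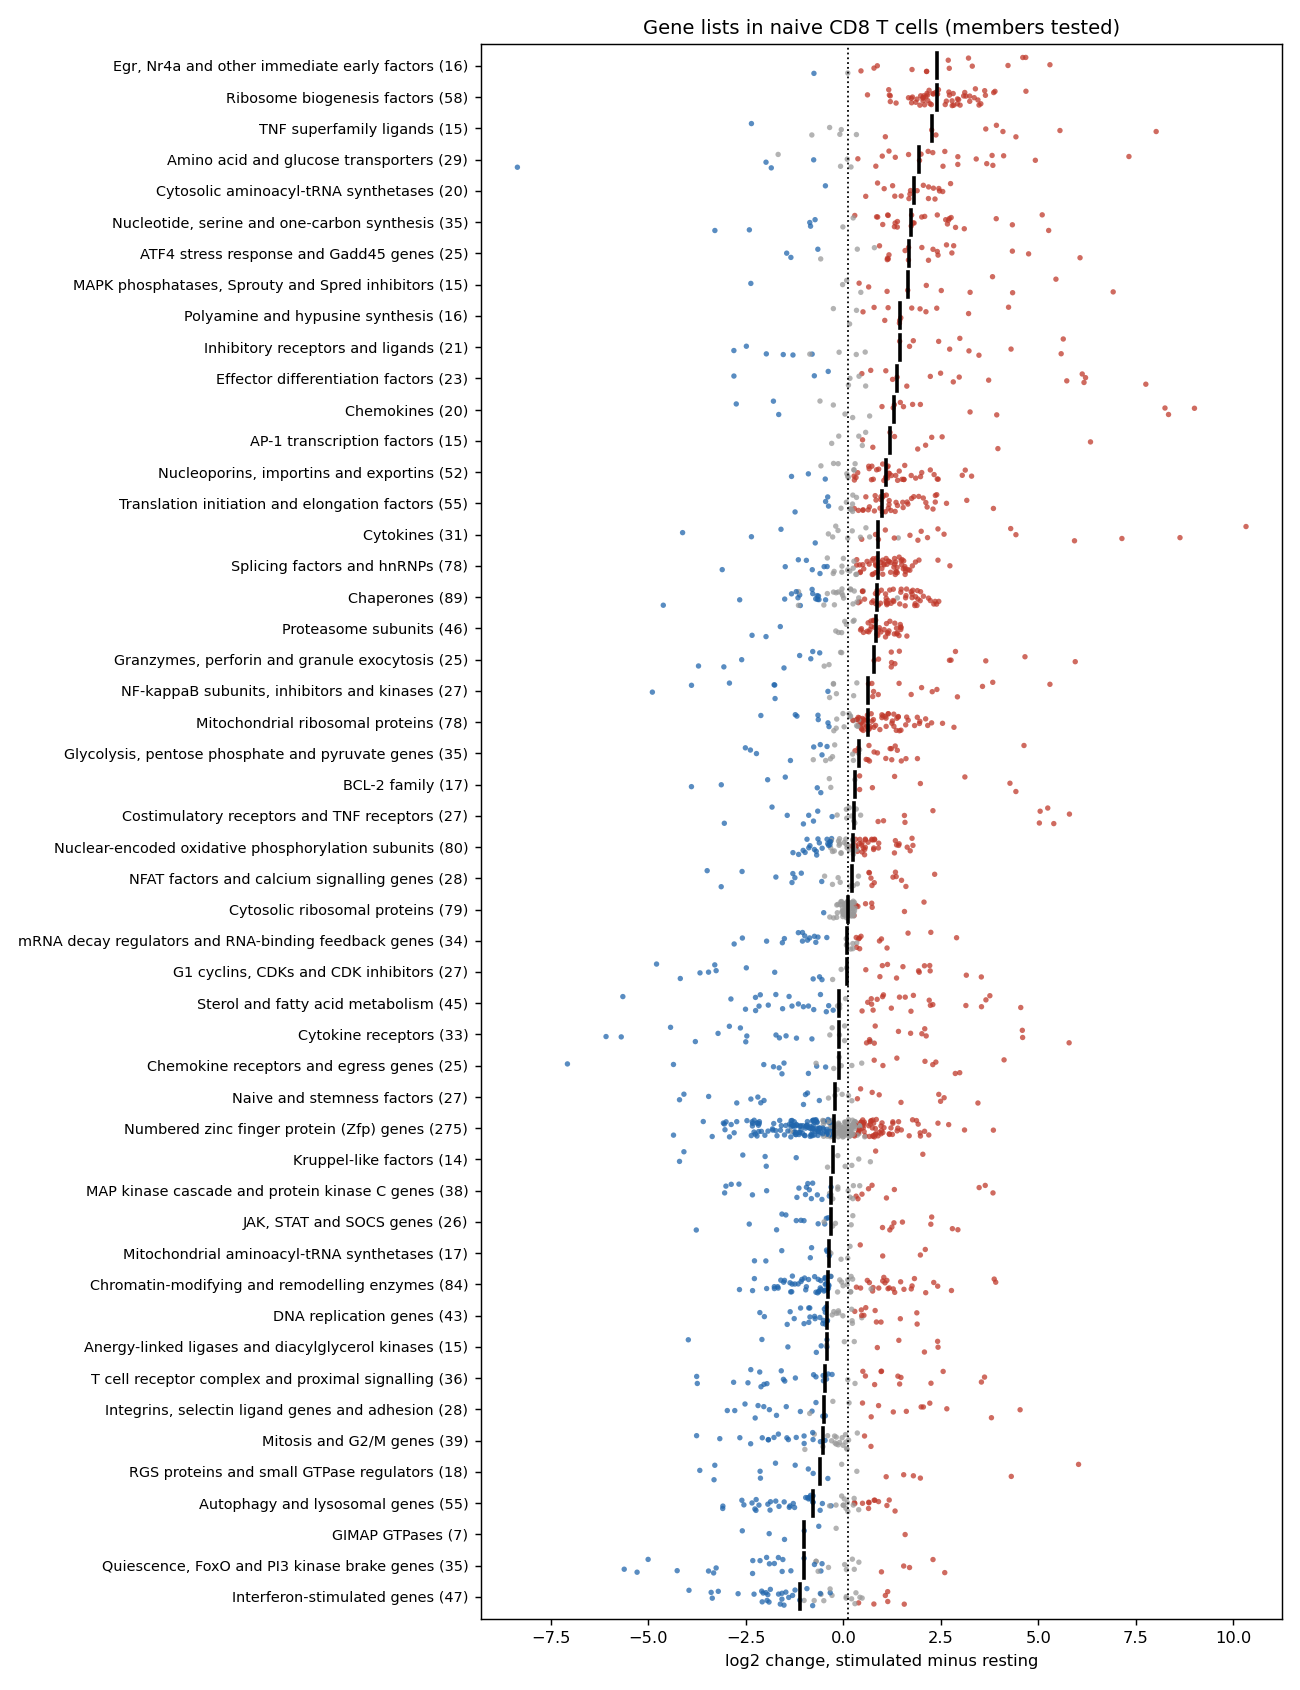
Log2 change of every tested member (points; red rose, blue fell, grey not passed) of 50 gene lists ordered by their median (black bar), with the median over all genes (0.11) dotted and the number of members tested in brackets. Ribosome biogenesis factors lie wholly above 0, cytosolic ribosomal proteins crowd around the dotted line and interferon-stimulated genes have the lowest median, -1.12.

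The machinery that builds ribosomes rose as a whole, and the ribosomal proteins stayed near the median of all genes. All 58 ribosome biogenesis factors tested rose, with changes from 0.62 to 4.68. Rrp1b was at 3.59, 3.48, 3.48 and 3.34 in stimulated cells, against -0.75, -1.18, -1.30 and -1.60 in resting cells, a rise of 4.68 ± 0.18, and the pseudouridine synthase gene Dkc1 rose by 3.64 ± 0.19. Of 79 cytosolic ribosomal protein genes, paralogs included, 9 rose and 1 fell (2 and 11 with the sensory receptor covariate), and the median was 0.12. The clearest rises were in paralogs, Rpl7l1 (2.07 ± 0.12) and Rps27l (1.57 ± 0.21). Leaving out 1 array moved the 9 rises to between 4 (without stimulated replicate 4 or resting replicate 3) and 21 (without resting replicate 1). The direction depended on the scaling: with quantile scaling 3 rose and 28 fell, with a median of -0.11. Mitochondrial ribosomal proteins rose in 59 of 78 and fell in 7 (39 rose with the median of the sensory receptor genes as a covariate), for example Mrps6 (2.83 ± 0.19) and Mrpl17 (2.54 ± 0.19) upward and Mrpl14 (-2.12 ± 0.20) downward.

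Enzymes that charge tRNAs differed by compartment. Of 20 cytosolic aminoacyl-tRNA synthetases 19 rose, with a median of 1.81, and Qars fell (-0.46 ± 0.11). Of 17 mitochondrial synthetases 4 rose and 8 fell, with a median of -0.36. Cars, the cytosolic enzyme for cysteine, was at 3.84, 4.54, 4.64 and 4.43 in stimulated cells, against 1.49, 1.78, 1.91 and 2.42 in resting cells, and its mitochondrial counterpart Cars2 at -1.00, -1.13, -1.13 and -1.23 in stimulated cells, against 0.63, 0.38, 0.38 and 0.44 in resting cells. For both genes the groups did not overlap, and the directions were opposite. Yars, the enzyme for tyrosine, rose in the cytosolic (2.75 ± 0.14) and the mitochondrial form (Yars2, 2.10 ± 0.13). Translation factors rose in 42 of 55 and fell in 4 (7 with quantile scaling). The cap-binding protein gene Eif4e rose by 2.64 ± 0.09, Eif1a by 3.16 ± 0.18 and Eef1e1 by 3.85 ± 0.14. Eef2, the elongation factor that moves the ribosome, changed by -0.38 ± 0.13, a call that ended without stimulated replicate 4 (-0.31) or resting replicate 1 (-0.25), and without that resting array 2 of the 55 fell.

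Most proteasome and chaperone genes rose, and the immunoproteasome subunits fell. Of 46 proteasome genes 36 rose and 3 fell, and the 3 that fell were the catalytic subunits of the immunoproteasome, the form that favours antigen presentation. Psmb10 was at 2.24, 2.41, 2.35 and 2.68 in stimulated cells, against 4.95, 4.74, 4.71 and 4.66 in resting cells, and Psmb8 (-1.98 ± 0.13) and Psmb9 (-1.62 ± 0.22) fell with it. The subunits they replace in that form changed by 1.04 ± 0.14 (Psmb7), 0.65 ± 0.17 (Psmb5) and 0.92 ± 0.15 (Psmb6), with adjusted p of 6.18e-06, 0.00304 and 4.25e-05, and the call of Psmb5 ended with quantile scaling (0.29), under which 6 of the 46 fell. Of 89 chaperone genes 53 rose and 16 fell, led upward by the mitochondrial chaperonin Hspd1 (2.45 ± 0.10) and the chaperonin subunit Cct6a (2.32 ± 0.17) and downward by Dnajc28 (-4.62 ± 0.19, with 2 of 4 stimulated arrays above background). Autophagy and lysosomal genes fell in 31 of 55 and rose in 12 (7 with quantile scaling). The lysosomal protease gene Ctsd fell by 3.09 ± 0.14 and the autophagy gene Atg10 fell by 2.55 ± 0.23. Wipi1 was at least 6.37-fold lower.

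RNA handling and nuclear transport rose in most members. Splicing factors and hnRNPs rose in 58 of 78 and fell in 8. The core spliceosome gene Snrpd1 rose by 2.73 ± 0.12 and Snrpa1 by 2.42 ± 0.09. The members that fell include regulators of alternative splicing, Celf2 (-1.49 ± 0.11) and Mbnl1 (-1.16 ± 0.10), and Srsf12 (-3.11 ± 0.20). Nucleoporins, importins and exportins rose in 40 of 52 and fell in 3 (5 with quantile scaling), with Ipo5 at 3.29 ± 0.12 and Rcc1, the exchange factor of the transport GTPase Ran, at 3.12 ± 0.14. Regulators of mRNA decay were split, 12 rising (35.3%) and 15 falling (44.1%) of 34, and 7 rose with quantile scaling. The shares over all genes were 36.7% and 32.0%. The nuclease gene Zc3h12a, Regnase-1, rose by 1.66 ± 0.20, its relative Zc3h12c was at least 2.63-fold higher, and Zc3h12d fell by 2.59 ± 0.27. Zfp36l1, which marks AU-rich mRNAs for decay, rose by 2.24 ± 0.14.

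Most genes of nutrient uptake and synthesis rose. Of 29 amino acid, glucose and other transporter genes 21 rose and 4 fell. Slc7a5, a chain of the large neutral amino acid transporter, was at 4.32, 5.20, 5.19 and 4.84 in stimulated cells, against 0.50, 1.20, 1.22 and 1.39 in resting cells, and Slc1a4 (4.92 ± 0.17), the transferrin receptor gene Tfrc (4.11 ± 0.12) and the folate carrier gene Slc19a1 (3.83 ± 0.17) rose. Slc6a19 was at -7.11, -7.54, -7.04 and -6.91 in stimulated cells, against 1.57, 0.94, 0.94 and 1.38 in resting cells, and all 4 stimulated arrays were below background, at least 112-fold lower. Polyamine synthesis rose in 13 of 16 genes with no falls, led by the spermidine synthase Srm (4.24 ± 0.17) and Mtap (3.21 ± 0.11). Of 35 genes of nucleotide, serine and one-carbon synthesis 28 rose and 5 fell. Mthfd2, a mitochondrial folate enzyme, was at 3.64, 4.07, 4.22 and 3.85 in stimulated cells, against -1.11, -1.35, -1.17 and -0.98 in resting cells, and Shmt1 (5.26 ± 0.15) and Psat1 (4.33 ± 0.21) rose. CTP synthases moved oppositely, Ctps by 3.92 ± 0.18 and Ctps2 by -3.29 ± 0.10. Dck, the kinase of the deoxynucleoside salvage pathway, fell by 2.41 ± 0.19.
Targets of the amino acid stress factor ATF4 and Gadd45 genes rose in 19 of 25 and fell in 3. Asns, asparagine synthetase, rose by 4.75 ± 0.21 and Chac1, which degrades glutathione, by 6.07 ± 0.62. Ddit3, the factor CHOP, fell by 1.45 ± 0.22, and so did Ddit4 (-1.35 ± 0.35), an inhibitor of the kinase mTOR.

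In glycolysis and the pentose phosphate pathway 18 of 35 genes rose and 8 fell. Hk2, hexokinase 2, was at 5.91, 5.31, 5.28 and 5.27 in stimulated cells, against 1.66, 0.42, 0.41 and 0.76 in resting cells. Pgam1 (1.90 ± 0.20) and the transketolase gene Tkt (1.49 ± 0.10) rose, and Pdk1, a pyruvate dehydrogenase kinase (-2.51 ± 0.35), Pfkfb2 (-2.38 ± 0.20) and Pfkm (-2.23 ± 0.17) fell. Respiratory chain subunits rose in 35 of 80 (19 with the sensory receptor covariate) and fell in 20, all by less than 4-fold, from Uqcrq (1.78 ± 0.15) to Ndufv3 (-1.29 ± 0.18). Here too the balance turned with quantile scaling, to 19 rising and 31 falling. Sterol and fatty acid genes divided, 21 rising (46.7%) and 20 falling (44.4%) of 45, against 36.7% and 32.0% over all genes. Cyp51, an enzyme of cholesterol synthesis, rose by 3.54 ± 0.18. The cholesterol exporters Abcg1 (-2.88 ± 0.33) and Abca1 (-2.25 ± 0.22), their regulator Nr1h3, the receptor LXR alpha (-2.51 ± 0.22, with 2 of 4 stimulated arrays above background), and the desaturase gene Scd2 (-5.66 ± 0.22) fell.

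Genes of entry into the cell cycle moved in both directions, and most of those of replication and mitosis had not risen by 4 h. Of 27 G1 cyclins, kinases and inhibitors 13 rose (48.1%) and 11 fell (40.7%), against 36.7% and 32.0% over all genes. Ccnd2, cyclin D2, was at 7.42, 7.63, 7.58 and 7.12 in stimulated cells, against 3.79, 4.05, 4.09 and 3.69 in resting cells, and Ccnd3, cyclin D3, at 0.10, -0.15, 0.07 and -0.28 in stimulated cells, against 2.45, 2.42, 2.64 and 2.19 in resting cells. Cyclin D2 rose by 3.54 ± 0.14, cyclin D3 fell by 2.49 ± 0.14, and neither overlapped. Rbl2, the retinoblastoma relative p130 that holds resting cells out of the cycle, was at -3.59, -3.45, -3.56 and -3.31 in stimulated cells, against 1.30, 1.33, 1.36 and 1.27 in resting cells. Cdkn1b, the kinase inhibitor p27, fell by 3.26 ± 0.13 and Cdkn1a, p21, rose by 3.15 ± 0.37. Cdk4 (1.95 ± 0.19) and E2f4 (2.08 ± 0.10) rose, and Rbl1 (-4.18 ± 0.14) and E2f2 (-3.68 ± 0.15) fell. Of 43 replication genes 11 rose and 22 fell (13 with the sensory receptor covariate), for example Pcna (1.46 ± 0.15) and Orc1 (1.89 ± 0.21) upward and Pole2 (-2.14 ± 0.15) and Rpa1 (-2.03 ± 0.10) downward. Mitosis genes rose in 2 of 39 and fell in 18 (11 with that covariate), most in Cdc25b (-3.76 ± 0.26) and Racgap1 (-3.17 ± 0.15).

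In the BCL-2 family, which sets the threshold of mitochondrial cell death, 8 of 17 rose (5 with the sensory receptor covariate) and 6 fell. Bcl2l1, the protective BCL-XL, was at 2.70, 2.03, 2.04 and 1.48 in stimulated cells, against -2.37, -2.43, -2.38 and -2.27 in resting cells, and Bcl2a1b rose by 4.27 ± 0.16, a gene with near-identical copies that the probe may not tell apart. The pro-death genes Bbc3, PUMA (-3.90 ± 0.30), Bmf (-3.13 ± 0.20) and Bad (-1.94 ± 0.35) fell. Bcl2l11, BIM, changed by 0.42 ± 0.17 (adjusted p = 0.0433), a call that ended without any 1 of stimulated replicates 2 to 4 or resting replicates 1 to 3 (0.35 to 0.42), and its sign turned with quantile scaling (-0.05). Not every protective member rose: Mcl1 fell by 0.67 ± 0.13, and its probes were called in both directions, from -0.67 to 0.63 (mean of probes -0.02). Of 84 chromatin enzymes 26 rose and 44 fell. The histone methyltransferase genes Dot1l (3.91 ± 0.16) and Suv39h2 (3.87 ± 0.19) and the demethylase gene Kdm6b (2.77 ± 0.28) rose, and the methyltransferase gene Ehmt2 (-2.33 ± 0.16) and the deacetylase genes Sirt3 (-2.67 ± 0.12) and Hdac5 (-2.28 ± 0.26) fell. Numbered zinc finger genes fell in 120 of 275 and rose in 64, from Zfp386 (-4.36 ± 0.18) to Zfp296 (3.85 ± 0.15).

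**Figure D4:**
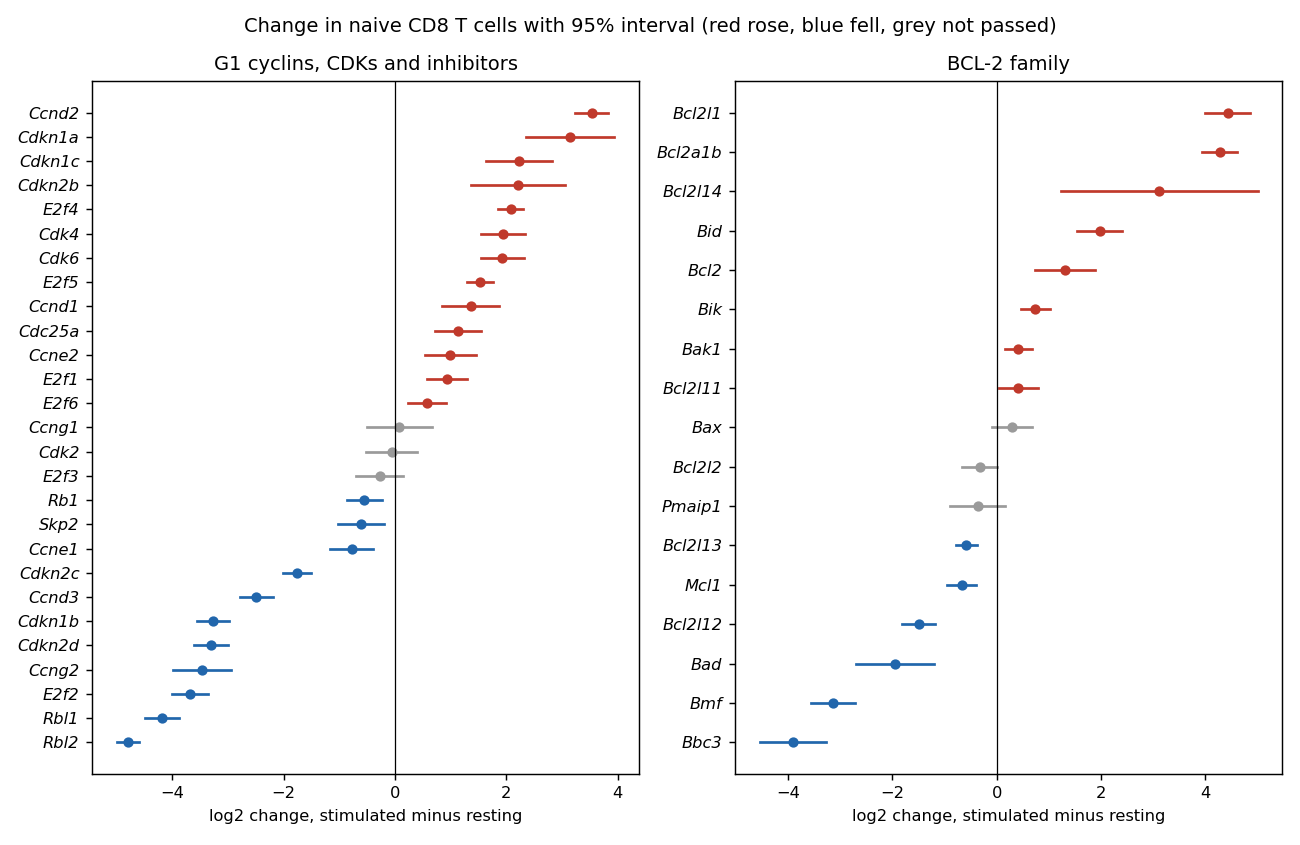
Log2 change (stimulated minus resting) with its 95% interval from the limma fit for 27 G1 cyclin, CDK and inhibitor genes (left) and 17 BCL-2 family genes (right), red rose, blue fell, grey not passed. The widest interval is that of Bcl2l14 and the lowest changes are those of Rbl2 (-4.79) and Bbc3 (-3.90).

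Genes with several probes did not always give 1 answer. Of 6043 such genes 384 had probes called in opposite directions. They include Araf, a Raf kinase, whose probes changed by -1.19 and 2.42, and the integrin chain Itgb3 (-2.93 and 0.71). Each gene here stands for its brightest probe on average, and the exon or UTR that a probe reads was not annotated here.

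Markers of other cells that a sort could carry over also moved. Among 16 monocyte, macrophage and neutrophil genes tested 10 fell and 2 rose (median -1.86, or -0.84 by repaired normexp), and their summed linear level relative to the 75th percentile was 14.6 to 21.9 on stimulated arrays, against 55.7 to 70.6 on resting arrays. Such a sum rests mostly on its brightest members. Among members with a mean level of 0 or more, 3 fell and 0 rose. S100a8, a neutrophil protein gene and a small part of the sum, was at -3.94, -2.84, -3.04 and -3.95 in stimulated cells, against -0.89, 0.15, 0.07 and -0.11 in resting cells. Retnlg, a neutrophil gene, was at least 3.07-fold lower, below background on all stimulated arrays. Of 6 B cell genes tested 1 fell, Cd79b (-4.62 ± 0.28), and 4 of 10 listed were not tested because they were too dim. Of 11 NK or NKT cell genes 2 rose, Cd160 (5.64 ± 0.26) and Nkg7 (1.23 ± 0.25), and 5 fell, most in Fcgr3 (at least 11.5-fold lower) and Klrd1 (-3.54 ± 0.28). Cd160 also belongs to the list of inhibitory receptors above and Nkg7 to that of granule genes, so neither marks NK cells alone. The summed level of the NK list was 15.2 to 24.1 on stimulated arrays, against 49.4 to 68.4 on resting arrays, and its members Ncr1 and Klrk1 were not well above background on any naive array. Klrd1 alone made up most of the resting sum, at a level of 5.98 on resting replicate 4 and 5.45 to 5.53 on the others. In stimulated cells Klrd1 was at 3.02 on replicate 4 and 1.68 to 1.77 on the others. The fall of the sum is thus mainly that of 1 gene. Of 10 MHC class II and dendritic cell genes 6 rose, led by Itgax (2.05 ± 0.51). With the median of the sensory receptor genes as a covariate 2 of the 10 rose, and Itgax did not pass (1.71, adjusted p = 0.0597). H2-DMa fell (-3.40 ± 0.15). Genes of CD4 or regulatory T cells rose in 1 of 5 and fell in 3, T cell genes rose in 3 of 11 and fell in 7, and of 4 erythrocyte or platelet genes 1 rose and 1 fell. Small counts here moved when 1 array was left out: the myeloid rises to 0 without stimulated replicate 2 or 3 and to 1 without resting replicate 1, 3 or 4, the B cell falls to 2 without stimulated replicate 4 and, without resting replicate 1, the B cell rises to 1 and the CD4 and erythrocyte or platelet rises to 2 each. The part of other cells in the results above was not tested.

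The response of naive cells was finally set against that of memory phenotype cells, with the difference itself tested. Of the 6761 genes that rose in naive cells, 4650 rose in memory cells, 799 fell and 1312 did not pass, and of the 5894 that fell, 4999 fell, 71 rose and 824 did not pass. These counts are to be read beside the memory response over all 18401 genes, in which 5531 rose and 7503 fell. Its median change was -0.21, against 0.11 in naive cells. The difference (memory response minus naive response, so that a negative value means a larger rise or smaller fall in naive cells) passed in 3632 genes (19.7%), above 0 in 1033 (5.61%) and below 0 in 2599 (14.1%). The excess below 0 lay in dim genes: among the 7576 genes with a mean level of 0 or more on the naive arrays, 566 were above 0 and 378 below. Sensory receptor genes were below 0 in 196 and above 0 in 28 of 420, and their median change was 0.52 in naive and -0.51 in memory cells. The filter that chose the 420 bears on these values too.

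Among interferon-stimulated genes the differences that passed had 1 sign. The difference passed in 15 of 47, all below 0, with a median change of -1.12 in naive and -2.08 in memory cells. Chemokine receptor and egress genes passed in 9 of 25, again all below 0. Immediate early genes passed above 0 in 11 and below 0 in 2 of 16. Il21, a cytokine of activated T cells, was at -7.72, -7.61, -7.66 and -7.39 in stimulated cells, against -7.49, -7.50, -7.39 and -7.46 in resting cells, and it was well above background on the 4 stimulated memory arrays and on no other array. Csf2, which encodes GM-CSF, was at -2.77, -0.69, -0.84 and -2.11 in stimulated cells, against -7.58, -7.33, -7.62 and -7.58 in resting cells and was at least 16.8-fold higher in stimulated naive cells. Its resting arrays of both cell types were below background, so the size of the difference between both responses was not measured. In the other direction, Xcl1 (-1.33 ± 0.23), Ccl4 (-1.40 ± 0.23) and Ccl3 (-1.20 ± 0.20) rose more in naive cells, and Slc6a19 (2.29 ± 0.23), Gprc5b (2.84 ± 0.45) and Il18r1 (2.65 ± 0.35) fell more in naive cells. The chemokines started higher in memory cells. Mean resting levels in memory and naive cells were 0.25 and -2.69 for Xcl1, 2.33 and 0.80 for Ccl4, and 0.85 and -0.68 for Ccl3. After stimulation they were 7.9 and 6.3, 9.3 and 9.1, and 7.9 and 7.6, so naive cells did not reach higher levels. With the median of the sensory receptor genes as a covariate the differences of Xcl1 (-0.85) and Ccl4 (-1.19) no longer passed. For Slc6a19 and Gprc5b the stimulated arrays of both cell types were below background, so these differences rest partly on levels that were not measured.

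**Figure D5:**
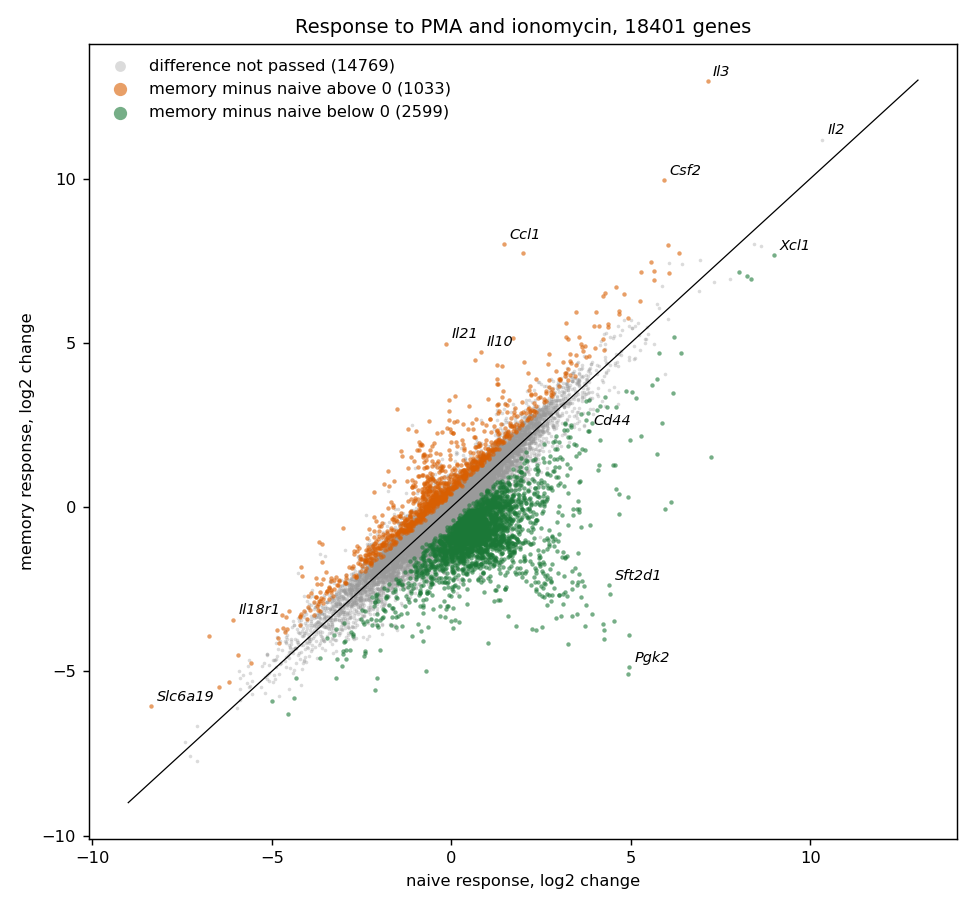
Log2 change in naive cells (horizontal axis) against that in memory phenotype cells (vertical axis) for 18401 genes with the line of equality, orange where memory minus naive passed above 0 (1033 genes), green where it passed below 0 (2599) and grey for the rest. Il2 lies close to the line, and Il3 and Ccl1 lie above it.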

How the data were processed

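Total RNA of 16 samples was labelled with Cy3 and hybridised to 1-colour Agilent arrays, per the labels' protocols. The deposited per-array files hold spot intensity values from Agilent Feature Extraction 9.5.3.1, per the file headers, with background subtracted and spatially detrended within each array and no scaling between arrays. The authors' deposited value table, which holds part of the same spots as intensity with its filter and scaling not stated, served only as an alternative.

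Groups were read from the sample titles. Control spots and outlier spots were left out, spots of 1 probe were averaged, and the log2 of the processed signal minus the 75th percentile of the array was taken. Probes well above background on at least 3 of 4 arrays of at least 1 of the 4 groups were kept, and of several probes of a gene the one with the highest mean was used. Gene names came from the RefSeq table of GRCm38.p6 by accession, symbol or synonym for 32737 probes, and 8437 probes kept the name in the file. The probe coordinates in the files are on build mm7, for which no annotation was used. The promoter table gave 1 promoter for 18 of the 30 genes named for the size of their change. limma 3.58.1 (R 4.3.3, lmFit and eBayes) was fitted to all 16 arrays with 1 mean per group, and p-values were adjusted over 18401 genes by the Benjamini-Hochberg method. Tables and plots were made with pandas 2.3.3 and matplotlib 3.10.9 under Python 3.11.15, and the fit was tested on simulated data with known changes. The number of arrays limits the precision.

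The members and lists were chosen with earlier results of these data known. Named were the 15 largest rises and falls among symbols that are no clone or predicted names, with groups that did not overlap and at least 3 of 4 brighter arrays above background. To these came up to 4 rises and 4 falls per list with its role-defining members, the 10 largest differences between both responses in each direction, the genes of the sort, the 6 genes closest to 0 and 5 genes with opposed probes. Members outside these that the text singles out were chosen after their values were seen, and some genes that met the rules are not reported here. Replicate numbers were not taken as pairing, because the labels do not say that a number marks an occasion and 1 of 4 correlations of deviations between same-numbered arrays was below 0.1.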

Additional observations from a re-analysis of the deposited data

Results flagged for a closer look

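For genes that were named by rule or appear above, each naive group of 4 arrays was looked at for 1 array set apart from the other 3 by Dixon's gap test at its 95% limit. Of 644 groups (322 genes in 2 groups) 63 had such an array (9.78%), where chance gives about 1 in 20. Such arrays were unevenly spread: 13 fell on stimulated replicate 1 and 8 on stimulated replicate 4, against 20 on resting replicate 4 and 14 on resting replicate 1, and 1 to 4 on each of the other arrays. All values that follow are levels on the log2 scale of the array named. Stimulated replicate 1 lay above the other 3 for Hk2 (5.91) and Selplg (2.88). It lay below the other 3 for Egr2 (6.62), Rgs1 (5.72), Psat1 (4.67), Maff (3.98), Sesn2 (3.94), Cdkn1a (1.37), Itgb7 (1.10), Hdac5 (0.98), Suv39h2 (-0.35), Abca1 (-1.74) and Nr1h3 (-5.94). Stimulated replicate 4 lay above the other 3 for Igtp (7.42), Klrd1 (3.02), Tnfrsf26 (1.86) and Gimap7 (-2.49). It lay below the other 3 for Ifng (6.12), Vsir (4.91), Pim3 (3.44) and Cd160 (-0.33). Stimulated replicate 2 lay above the others for Pias3 (-4.74), and stimulated replicate 3 for Cxcl9 (-3.21).

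Resting replicate 4 lay above the other 3 for Klrd1 (5.98), Tcf7 (5.81), Rps27l (4.68), Cish (2.47), Psat1 (1.42), Tbc1d19 (0.41), Srsf12 (-0.15), Cdkn1a (-0.36), Dusp4 (-0.54), Rtbdn (-1.12), Tenm4 (-1.35) and Plaat5 (-1.85). It lay below the other 3 for Hdac5 (3.94), Stim1 (3.32), Klf3 (2.46), Nedd4 (0.17), Klf9 (-2.37), Cblb (-2.49), Map2k6 (-3.49) and Runx1 (-3.88). For Tenm4, Rtbdn, Plaat5 and Tbc1d19, genes named for their difference between both responses, the other 3 arrays were between -5.69 and -3.36. For these genes and for Pgk2, Bmp3, Vmn1r237 and Angptl7, replicate 4 was the highest resting array in naive and in memory cells alike. Stimulated naive replicate 1 was the lowest of its group for all of them. Pgk2 was at -1.48 on naive resting replicate 4, against -7.5 to -5.31 on the others. On memory resting replicate 4 it was at 0.65, against -4.10 to -2.10. Resting replicate 1 lay above the other 3 for Eef2 (6.80), Ccr7 (6.33), Stat4 (4.26), Itgae (3.68), Gimap5 (3.67), Nkg7 (3.22), Mapk3 (1.97), Ccr9 (1.86), Ddit3 (1.06), Tnfsf14 (-1.66) and Fzd9 (-5.48). It lay below the other 3 for Mrps6 (3.08), Fyn (0.51) and Nfat5 (0.38). Resting replicate 2 lay above the others for Csf2 (-7.33) and below them for Tnfrsf21 (-6.24), and resting replicate 3 lay below them for Zfp935 (1.52), Gbp5 (0.40), Cpa4 (-5.77) and Tnip3 (-7.23). No resting array was above background for Csf2 or Tnfrsf21, and most were not for Tnip3. Gaps of this kind are in the count given above, though they lie among levels that were not measured. The calls of the naive response that ended when 1 of these arrays was left out are given above for Eef2 and Bcl2l11.

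The test of the difference between both responses (memory minus naive, limma, all 16 arrays) passed in 3632 genes. On the log2 scale it was above 0, with a larger rise or smaller fall in memory cells, for Ccl1 (6.54), Il3 (5.82), Il17a (5.73), Il21 (5.11), Cpa4 (4.49), Csf2 (4.04), Il10 (3.90), Il22 (3.81), Negr1 (3.60), Il17f (3.45), Gprc5b (2.84), Il18r1 (2.65) and Slc6a19 (2.29). Il17a, Il17f, Il22, Il10, Il21 and Il3 encode cytokines and Ccl1 a chemokine. It was below 0 for Pgk2 (-9.82), Tbc1d19 (-7.43), Rtbdn (-7.35), Bmp3 (-7.18), Vmn1r237 (-7.04), Sft2d1 (-6.78), Tenm4 (-6.76), Plaat5 (-6.73), Angptl7 (-6.31), Cep20 (-6.19), Ccl4 (-1.40), Xcl1 (-1.33) and Ccl3 (-1.20). Pgk2, Tbc1d19, Rtbdn, Bmp3, Vmn1r237, Tenm4, Plaat5 and Angptl7 share the array profile given above, so they do not count as separate results. The cause of that profile was not tested. With the median of the sensory receptor genes as a covariate, chosen after seeing the data, 12 of these 26 differences no longer passed. In 15 of the 26, Il21 and Csf2 included, at least 1 of the 4 groups had no array well above background, so the size of these differences rests on levels that were not measured.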

How the results depend on the processing

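In 124 of 146 recomputed counts and medians over all genes and in 6577 of 6674 recomputed gene values the direction and the side of the threshold, or a count within 1.5 times, were kept. Of 2436 recomputed counts of gene lists 2265 stayed within 1.5 times and 171 moved. Of these moves 46 came with a mean level of 0 or more and 42 with normexp background correction. Over the 8 fits that left out 1 naive array the genes that rose numbered 6263 to 6960 and those that fell 5580 to 5790. The 4-fold rises numbered 1291 to 1386, the 4-fold falls 1478 to 1540, the differences between both responses 2999 to 4255 and the stable genes 824 to 984, and the median change was 0.079 to 0.14. With normexp background correction 3759 genes rose, 2928 fell, 708 and 612 did so at least 4-fold, 214 differed between both responses, 209 were stable and the median was 0.380. Its fit failed on 3 of the 16 arrays, naive stimulated replicate 1 among them. With the parameters of those arrays replaced by the median of the others, an alternative added after seeing the data, 778 genes rose and 678 fell at least 4-fold, and the other counts over all genes stayed within 1.5 times, while counts of some lists moved further, such as the sensory receptor falls to 4 and the cytosolic ribosomal protein rises to 15. Among genes with a mean level of 0 or more, 3397 rose, 2523 fell, 566 and 480 did so at least 4-fold, 968 differed between both responses and the median was 0.190, where fewer genes were tested. By the authors' deposited table the 4-fold rises were 762 and the median was -0.011, and with quantile scaling it was 0.012. Also chosen after seeing the data were the median of the sensory receptor genes as a covariate, with 1379 differences between both responses, 560 stable genes and a median of -0.072, and leaving out resting replicates 1 and 4 together, with a median of 0.168. With the mean of all probes of a gene the changes were 0.61 for Araf, -1.11 for Itgb3 and -2.36 for Klf2, opposite in sign to the brightest probe. Bcl2l11 was at -0.05 with quantile scaling and -0.26 in the authors' table, and Cd200r1 at 0.34 with normexp. The causes were not tested. With a replicate block 7107 genes rose, 6175 fell and 4679 differed between both responses, and no call of a named gene changed. Deviations of same-numbered arrays correlated at 0.286, 0.044, 0.149 and 0.202, each array best with its own number, which is a hint from the data and not from the design, and the number is also the position on the slide. Levels near background limit the fold of dim genes.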
